A study of Mus musculus with 22 samples.

Results

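The neural basic helix-loop-helix (bHLH) genes described here were a list of 9 mouse genes, Neurog1, Neurog2, Neurog3, Neurod1, Neurod2, Olig1, Olig2, Olig3 and Atoh1, taken by name from the 21827 protein-coding genes of the GENCODE M21 basic annotation on the GRCm38 (mm10) genome. They were read in a ChIP-seq series on mouse embryonic stem cells whose title concerns the recruitment of Polycomb repressive complex 2 (PRC2) to DNA by MTF2. The series holds 22 samples in 12 groups, of which 7 groups of 2 libraries each gave the 7 deposited peak lists used here. Wild-type E14 cells gave lists of MTF2, EZH2, H3K27me3 and H3K4me3. Cells of the line Mtf2 GT/GT, in which a gene trapping cassette disrupts the coding sequence of Mtf2, gave lists of EZH2, H3K27me3 and H3K4me3. Both lines grew in serum with LIF. The labels give no parent for the gene-trap line, so genotype and line background cannot be told apart, and without a list of MTF2 in these cells its loss was not checked. The remaining 8 libraries (input, JARID2, and MTF2 in Jarid2 and Eed knockout cells) were not analysed here.

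The proteins of this family are transcription factors that drive stem and progenitor cells toward neural fates. Neurog1 and Neurog2 start neurogenesis in the nervous system, Neurog3 specifies the endocrine cells of the pancreas, and Neurod1 and Neurod2 act later in differentiating neurons. Olig2 specifies motor neurons and oligodendrocytes, Olig1 acts in oligodendrocyte maturation, Olig3 patterns dorsal progenitors, and Atoh1 specifies cerebellar granule neurons and inner ear hair cells. In embryonic stem cells such developmental genes are held silent by PRC2, whose catalytic subunit EZH2 trimethylates lysine 27 of histone H3 (H3K27me3). Their starts often carry H3K4me3, a mark of active or poised promoters, at the same time, which is called bivalent. MTF2 is a Polycomb-like accessory subunit of PRC2 that binds DNA rich in unmethylated CpG, with GCG as a core.

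The deposited lists give only the position of each peak, with no score, height or depth, and 1 list stands for both libraries of a group. The comparisons below therefore have no replicate error and no test, and a gene without a peak is a gene absent from that list, not one shown to lack the mark. The lists hold 6357 MTF2 peaks, 7213 EZH2 peaks in wild-type against 840 in gene-trap cells, 6294 against 963 H3K27me3 peaks, and 27418 against 26960 H3K4me3 peaks. All 6 stem cell markers looked up (Pou5f1, Sox2, Nanog, Esrrb, Zfp42 and Klf4) had H3K4me3 at their promoters in both genotypes. The widest such peak differed in length between genotypes at some of them, with 21983 bp in wild type and 4785 bp in gene trap at Zfp42, 36617 bp and 21479 bp at Esrrb, and 12498 bp and 18435 bp at Sox2. The part of such differences between the lines in the H3K4me3 lengths below was not tested. A promoter is the window within 1 kb of the annotated start, and a mark is counted there when a peak overlaps it by at least 1 bp.

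Stretches of DNA under EZH2 peaks of gene-trap cells at 3 of the genes are shown first, because such short pieces are all that the gene-trap EZH2 list holds in the domains of the neural bHLH genes. They were read from GRCm38.p6 on the strand of the gene, 5′ to 3′, with each GCG or CGC in capitals. Neurog1 minus strand, chr13:56257099-56257252, intergenic, 4936 to 5089 bp upstream of the start. Neurod2 minus strand, chr11:98327513-98327676 and chr11:98327786-98328008, both in the coding sequence. Atoh1 plus strand, chr6:64732327-64732536, 3202 to 3411 bp downstream of the start and past the end of the gene.
Neurog1 EZH2 piece: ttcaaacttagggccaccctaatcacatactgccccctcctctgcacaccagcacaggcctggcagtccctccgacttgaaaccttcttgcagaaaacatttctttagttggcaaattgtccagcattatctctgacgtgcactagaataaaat
Neurod2 EZH2 piece of 164 bp: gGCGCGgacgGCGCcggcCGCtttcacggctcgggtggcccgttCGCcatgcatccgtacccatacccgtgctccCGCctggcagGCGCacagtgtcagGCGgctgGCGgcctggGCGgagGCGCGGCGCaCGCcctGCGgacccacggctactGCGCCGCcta
Neurod2 EZH2 piece of 223 bp: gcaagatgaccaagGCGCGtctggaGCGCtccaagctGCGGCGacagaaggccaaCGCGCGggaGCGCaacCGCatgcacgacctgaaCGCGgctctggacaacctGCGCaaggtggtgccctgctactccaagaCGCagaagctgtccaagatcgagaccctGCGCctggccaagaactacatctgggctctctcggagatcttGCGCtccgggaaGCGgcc
Atoh1 EZH2 piece of 210 bp: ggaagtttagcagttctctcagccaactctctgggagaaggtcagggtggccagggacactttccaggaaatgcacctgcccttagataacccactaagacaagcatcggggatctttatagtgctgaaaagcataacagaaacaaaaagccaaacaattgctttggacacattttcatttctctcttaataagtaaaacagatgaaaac
The Neurod2 pieces are dense in CpG, with 15.24 and 9.42 per 100 bases and 23 and 24 GCG or CGC triplets. The printed Neurog1 and Atoh1 stretches hold 1.30 and 0.48 CpG per 100 bases and no such triplet. The Atoh1 stretch is the poorest of its 3 pieces, and the others hold 2.45 and 7.36 CpG per 100 bases with 3 and 9 triplets.

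For comparison, the bases before the start of 3 genes are given from the RefSeq promoter table (GRCm38.p6), with the same capitals. Neurog1, chr13:56252181-56252430 on the minus strand, kept H3K27me3 in gene-trap cells. Neurog3, chr10:62132840-62133089, and Olig2, chr16:91225300-91225456, both on the plus strand, did not.
Neurog1 promoter: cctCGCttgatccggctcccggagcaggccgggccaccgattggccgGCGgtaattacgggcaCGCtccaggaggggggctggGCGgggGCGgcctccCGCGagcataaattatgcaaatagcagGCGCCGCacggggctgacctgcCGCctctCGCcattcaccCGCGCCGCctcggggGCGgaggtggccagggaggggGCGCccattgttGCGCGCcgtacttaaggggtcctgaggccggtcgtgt
Neurog3 promoter: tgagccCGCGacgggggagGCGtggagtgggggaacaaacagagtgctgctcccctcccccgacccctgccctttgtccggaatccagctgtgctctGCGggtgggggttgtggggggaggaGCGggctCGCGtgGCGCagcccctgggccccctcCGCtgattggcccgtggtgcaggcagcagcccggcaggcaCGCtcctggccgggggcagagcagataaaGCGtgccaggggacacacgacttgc
Olig2 promoter: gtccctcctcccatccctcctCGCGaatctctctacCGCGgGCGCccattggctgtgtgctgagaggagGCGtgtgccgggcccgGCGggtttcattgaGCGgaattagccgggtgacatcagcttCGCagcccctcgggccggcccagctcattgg
GCG or CGC occurs 23 times in the Neurog1 stretch, 12 times in that of Neurog3 and 10 times in the 157 bases of Olig2. Per 100 bases this was 9.20 at Neurog1, 4.80 at Neurog3 and 6.37 at Olig2. The count did not follow the H3K27me3 outcome over the other genes in the table. The bases before the start held 4 at Neurog2, 6 at Neurod2 and 17 at Atoh1, which kept the mark. They held 5 at Neurod1 and 4 at Olig3, which did not. The Neurod1 stretch has 135 bases and these others 244 to 250. Per 100 bases the values were 1.61, 2.43 and 6.80 for Neurog2, Neurod2 and Atoh1, and 3.70 and 1.64 for Neurod1 and Olig3. Of 32851 RefSeq windows of 250 bases before a start, 76.6% hold at least 1 of these triplets, counted on both strands with overlaps, and their median is 3. The E-box, CANNTG, which bHLH dimers bind, was present in 66.2% of the windows. Within the printed promoters Neurog3 had 1 E-box and Neurog1 and Olig2 had none in these bases, which at Olig2 are only 157. The table holds 8 of the 9 genes.

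In wild-type cells the promoters of all 9 genes carried all 4 marks. For MTF2 this was 9 of 9 genes beside 15.9% of all protein-coding genes, for EZH2 9 of 9 beside 16.6%, for H3K27me3 9 of 9 beside 19.3% and for H3K4me3 9 of 9 beside 65.5%. The 4 lists were found together at 14.6% of all genes, and H3K27me3 with H3K4me3 at 18.3%. The neural bHLH genes were thus all bivalent in these cells by position of the peaks.

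The peaks at these promoters were long. The H3K27me3 peak over the promoter ran from 7293 bp at Neurog3 to 31151 bp at Neurod2, with a median of 13533 bp beside 4220.5 bp over all genes with such a peak. For EZH2 the median was 3698 bp (739 bp at Neurod1 to 8084 bp at Atoh1) beside 1158 bp, and for MTF2 2392 bp (628 bp at Neurod1 to 4757 bp at Olig2) beside 1113 bp. H3K4me3 stood closer to the other genes, with a median of 2876 bp (1048 bp at Olig3 to 6378 bp at Neurog3) beside 2469 bp. The start itself lay inside the MTF2 and EZH2 peaks at 8 genes. The exception was Neurog3, whose MTF2 peak lay 294 to 1148 bp and whose EZH2 peak lay 119 to 1314 bp downstream of the start.

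**Figure D1:**
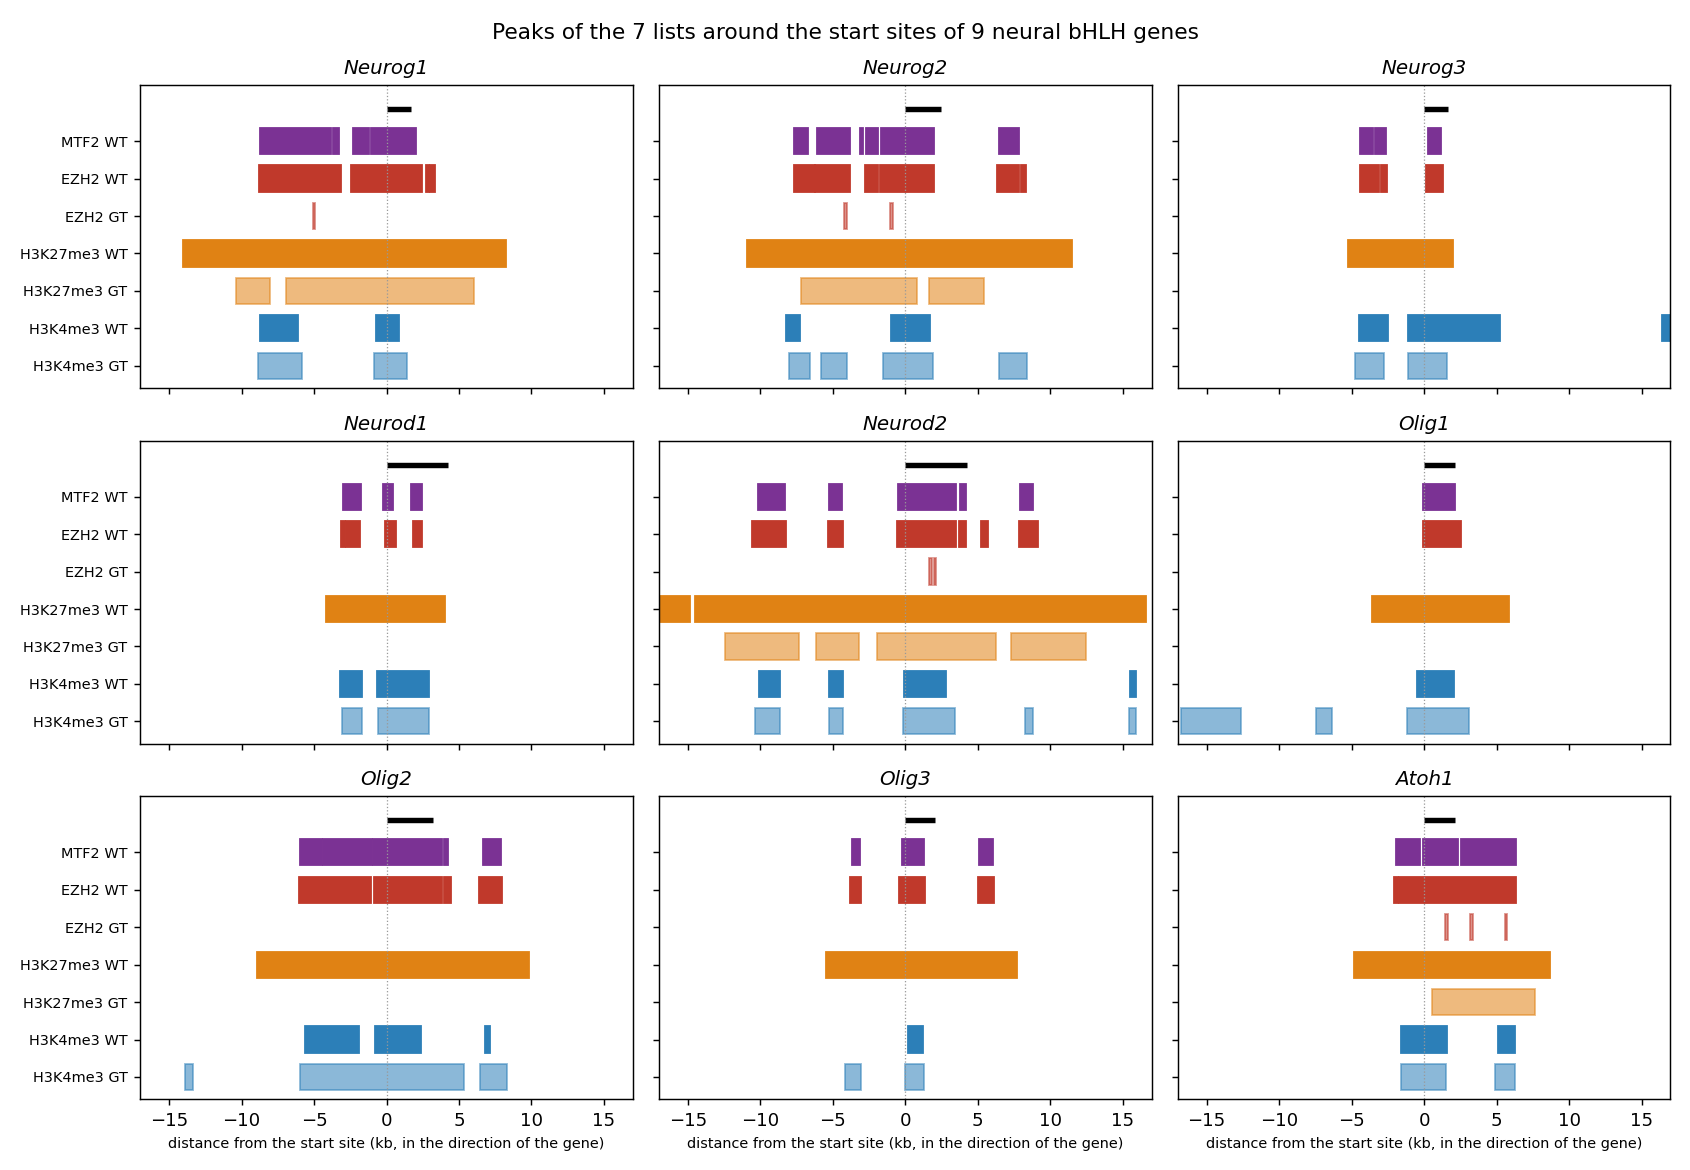
Peaks of the 7 lists (rows; WT, wild type, GT, Mtf2 gene trap) around the start of each gene, in kb along the direction of the gene, with the gene body as a black bar. Wide H3K27me3 peaks with MTF2 and EZH2 pieces inside them are seen at all 9 genes in wild type; H3K27me3 pieces are seen in gene trap at Neurog1, Neurog2, Neurod2 and Atoh1 and at none of the other 5.

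Each promoter sat in 1 wild-type H3K27me3 domain, meaning the single deposited peak over it, and no other protein-coding gene started within any of the 9 domains. Among the proneural factors, Neurog1 (ENSMUSG00000048904.5, 1 exon, chr13:56250478-56252163) lay in a domain of 22257 bp, chr13:56243927-56266183. It held 4 MTF2 pieces covering 9517 bp and 4 EZH2 pieces covering 11008 bp. Neurog2 (ENSMUSG00000027967.8, 2 exons, chr3:127633135-127635631) lay in a domain of 22418 bp, chr3:127622246-127644663, with 6 MTF2 pieces of 9414 bp and 6 EZH2 pieces of 10361 bp. Domain length and the length bound by both factors were thus similar at Neurog1 and Neurog2.

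Neurog3, the pancreatic member (ENSMUSG00000044312.4, 2 exons, chr10:62133090-62134763), had the shortest domain of the 9, 7293 bp at chr10:62127820-62135112, with 2497 bp of MTF2 and 2947 bp of EZH2. Atoh1 (ENSMUSG00000073043.5, 1 exon, chr6:64729125-64731245) had a domain of 13533 bp at chr6:64724273-64737805, of which MTF2 covered 7817 bp and EZH2 8339 bp. MTF2 thus covered 57.8% of the Atoh1 domain and 34.2% of the Neurog3 domain.

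The neuronal differentiation factors differed widely from each other. Neurod1 (ENSMUSG00000034701.9, 2 exons, chr2:79452521-79456751) had a domain of 8253 bp, chr2:79452694-79460946, with 2638 bp of MTF2 and 2656 bp of EZH2. Neurod2 (ENSMUSG00000038255.6, 2 exons, chr11:98325415-98329648) had the longest domain, 31151 bp at chr11:98313011-98344161, with 8047 bp of MTF2 and 9774 bp of EZH2 spread over 5 and 6 pieces.

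Among the Olig genes the amount bound also varied. Olig2 (ENSMUSG00000039830.9, 2 exons, chr16:91225457-91228677) had the most EZH2 of the 9 genes, 11775 bp, and the most MTF2, 11149 bp, in a domain of 18776 bp at chr16:91216495-91235270. Olig1 (ENSMUSG00000046160.6, 1 exon, chr16:91269772-91271933) had 1 piece of each factor, 2231 bp of MTF2 and 2593 bp of EZH2, in 9422 bp at chr16:91266201-91275622. Olig3 (ENSMUSG00000045591.6, 1 exon, chr10:19356533-19358604) had 2991 bp of MTF2 and 3631 bp of EZH2 in 13151 bp at chr10:19351092-19364242. By wild-type EZH2 length the genes fell in 2 ranges, 8339 to 11775 bp at Neurog1, Neurog2, Neurod2, Olig2 and Atoh1, and 2593 to 3631 bp at the other 4.

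Summed over the 9 domains, 146254 bp of H3K27me3 held 33 MTF2 pieces covering 56301 bp (38.5%) and 33 EZH2 pieces covering 63084 bp (43.1%). The median domain was 34.24% covered by MTF2 and 40.41% by EZH2, beside 23.62% and 26% over the 4118 H3K27me3 domains at promoters and 33.44% and 37.7% over the 750 of them that were at least 6877 bp long. MTF2 was not confined to the start sites, since 23 of its peaks in these domains lay away from the promoter windows and 10 touched them.

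In the gene-trap list EZH2 was nearly absent from these genes. One promoter of 9 had an EZH2 peak, that of Neurog2, beside 0.733% of all protein-coding genes. Of the 3628 genes with EZH2 in wild type 4.24% kept a peak at the promoter, and in the widest of 5 classes by wild-type peak width (from 2245 bp) 20.4% did. That class holds 6 of the 9 genes, of which 1 kept its peak, a share near that of the class. A peak anywhere within the wild-type EZH2 peak of the promoter was found at 3 of 9 genes (Neurog2, Neurod2 and Atoh1), beside 5.51%. That share is over wild-type peaks of any width, and none was taken for the widest class. In the 9 domains EZH2 went from 33 pieces and 63084 bp to 8 pieces and 1468 bp, or 2.33% of the wild-type length.

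Those 8 pieces lay in 4 genes and were 154 to 223 bp long, beside a median of 282 bp and a lowest value of 154 bp over the 840 gene-trap EZH2 peaks. Neurog1 held 1 (154 bp of the former 11008 bp, 1.40%). Neurog2 held 2 (350 bp of 10361 bp, 3.38%), Neurod2 2 (387 bp of 9774 bp, 3.96%) and Atoh1 3 (577 bp of 8339 bp, 6.92%). Neurog3, Neurod1, Olig1, Olig2 and Olig3 had no EZH2 piece in their domains, although Olig2 had had the longest EZH2 coverage of all.

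Each of the 8 pieces lay within a wild-type MTF2 peak and over gene-trap H3K27me3, as did 91.2% and 94.0% of all gene-trap EZH2 peaks. Gene-trap H3K4me3 overlapped 6 of the 8, and its share over all gene-trap EZH2 peaks was not taken. Further pieces lay 4006 to 4201 bp upstream of the Neurog2 start and, at Atoh1, 1437 to 1640 bp downstream in an untranslated part of its exon and 5559 to 5721 bp downstream. No piece contained a start site. Their sequence varied more than their length, from 0.48 to 15.2 CpG per 100 bases with a median of 3.59, beside a median of 5.02 over all 840.

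**Figure D2:**
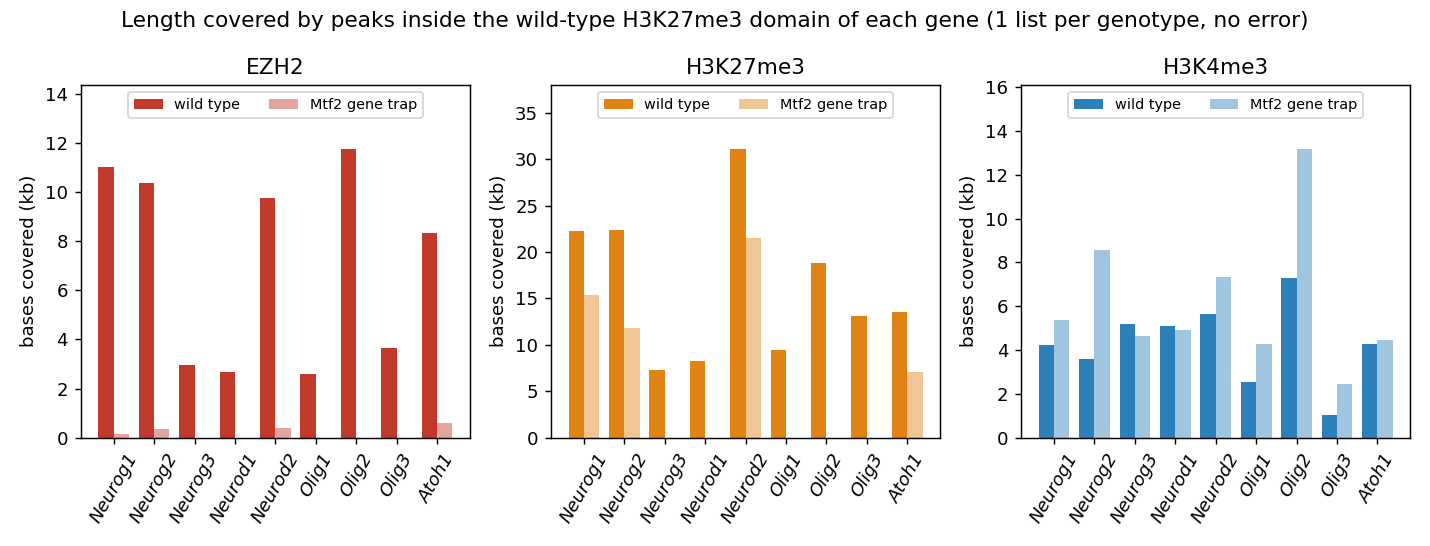
Bars give the kb covered by EZH2, H3K27me3 and H3K4me3 peaks inside the wild-type H3K27me3 domain of each gene, in wild-type (dark) and Mtf2 gene-trap cells (pale), from 1 list each. EZH2 in gene trap reaches at most 577 bp, H3K27me3 is present in gene trap at 4 genes, and H3K4me3 is longer in gene trap at 7 genes.

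H3K27me3 divided the genes into 2 sets. It was still listed at the promoters of Neurog1, Neurog2, Neurod2 and Atoh1 in gene-trap cells, 4 of 9 beside 2.68% of all genes, and was absent from the whole domain at Neurog3, Neurod1, Olig1, Olig2 and Olig3. Of the 4206 genes with the mark in wild type 13.7% kept it at the promoter. All 9 neural bHLH genes belong to the widest of 5 classes by wild-type H3K27me3 width (from 6877 bp), where 48.3% kept it, so that 4 of 9 is near the share of genes with comparably long domains.

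Where the mark stayed, it covered less. Neurog1 went from 22257 bp to 15337 bp in 2 pieces (68.9%), the longer one running from 6932 bp upstream to 6046 bp downstream of the start. Neurog2 went from 22418 bp to 11796 bp in 2 pieces (52.6%). Neurod2 went from 31151 bp to 21506 bp in 4 pieces (69.0%). These 3 genes still had their start inside an H3K27me3 peak. At Atoh1 1 piece of 7102 bp was left of 13533 bp (52.5%), and it began 542 bp downstream of the start, so that the start and all upstream sequence had lost the listed mark.

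The 4 genes that kept H3K27me3 were those in which EZH2 pieces were found. Their wild-type EZH2 coverage was 8339 to 11008 bp, and that of the genes without the mark was 2593 to 3631 bp at 4 of them. Olig2 was the exception, with 11775 bp of EZH2 and 11149 bp of MTF2 in wild type and no EZH2 or H3K27me3 peak in gene trap. Domain length divided the genes in the same way, with 13533 to 31151 bp where the mark was kept and 7293 to 13151 bp at the same 4 genes without it. Olig2, at 18776 bp, was again the exception. EZH2 coverage and domain length therefore cannot be told apart here, and the part of either was not tested. Over all 9 domains 38.1% of the H3K27me3 length was left, and the mean share per domain was 27% (median 0%), beside 6.655% (median 0%) over the 4118 domains at promoters. Over the 750 of these that were at least 6877 bp long the mean was 27.04% and the median 13.18%, so the 9 genes were near other long domains.

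Members of the same subfamily were found on both sides. Of the neurogenins, Neurog1 and Neurog2 kept H3K27me3 and Neurog3 did not; of the NeuroD genes, Neurod2 kept it and Neurod1 did not. None of the 3 Olig genes kept it. The combination of kept H3K27me3 without EZH2 at the promoter was seen at 3 of the 9 (Neurog1, Neurod2 and Atoh1), beside 12.0% of the 3420 genes with both in wild type, and loss of both at 5 of 9, beside 83.5%.

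H3K4me3 stayed at all 9 promoters in gene-trap cells, beside 66.1% of all genes and 98.8% of genes with the mark in wild type. With peaks counted anywhere in the wild-type peak the share of genes was 98.9%, and in the widest of 5 classes by H3K4me3 peak width (from 4208 bp), where Neurog3 is the only one of the 9, it was 99.8%. Both marks were thus left at 4 of 9 promoters, and H3K4me3 without H3K27me3 at 5 of 9. The latter stands beside 85.3% of the 3984 bivalent genes, whatever the length of their H3K27me3 domains. At Olig3 the start, which lay 203 bp outside the wild-type H3K4me3 peak, was inside the gene-trap one.

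The length covered by H3K4me3 within 10 kb of the start was then compared, a measure and a limit of 1.5-fold that were chosen after the values had been seen. Olig2 had 7294 bp in wild type and 13199 bp in gene trap (1.81-fold), a gain of 5905 bp that ranked 1 among the 3918 bivalent genes compared. Neurog2 had 3612 bp and 8565 bp (2.37-fold, rank 4). Olig1 went from 2548 bp to 5378 bp (2.11-fold, rank 34) and Olig3 from 1048 bp to 2470 bp (2.36-fold, rank 150). These 4 of 9 genes were at least 1.5-fold longer, beside 6.18% of the bivalent genes and 3.27% of the 14161 genes with H3K4me3. Over those 14161 genes 14.5% were at least 1.5-fold shorter in gene trap, so a longer H3K4me3 stretch was not the usual outcome.

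The other 5 genes differed less or the other way. Neurog1 (4228 bp and 5369 bp, 1.27-fold), Neurod2 (5193 bp and 6484 bp, 1.25-fold) and Atoh1 (4255 bp and 4467 bp, 1.05-fold) were slightly longer, and Neurod1 (5116 bp and 4912 bp, 0.96-fold) slightly shorter. Neurog3 was shorter, with 8394 bp in wild type and 4638 bp in gene trap (0.55-fold), 1 of 9 genes at least 1.5-fold down beside 5.13% of the bivalent genes. Its promoter peak reached 5239 bp downstream in wild type (6378 bp long) and 1562 bp downstream in gene trap (2641 bp long). Most of that difference lay outside the H3K27me3 domain, which ends 2022 bp downstream, since inside it H3K4me3 covered 5177 bp and 4638 bp (89.6%). The median gene-trap length was 127% of wild type over the 9 genes and 100.4% over the bivalent genes, and 7 of 9 were longer, beside 50.9% of the bivalent genes and 28.0% of all genes with H3K4me3.

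**Figure D3:**
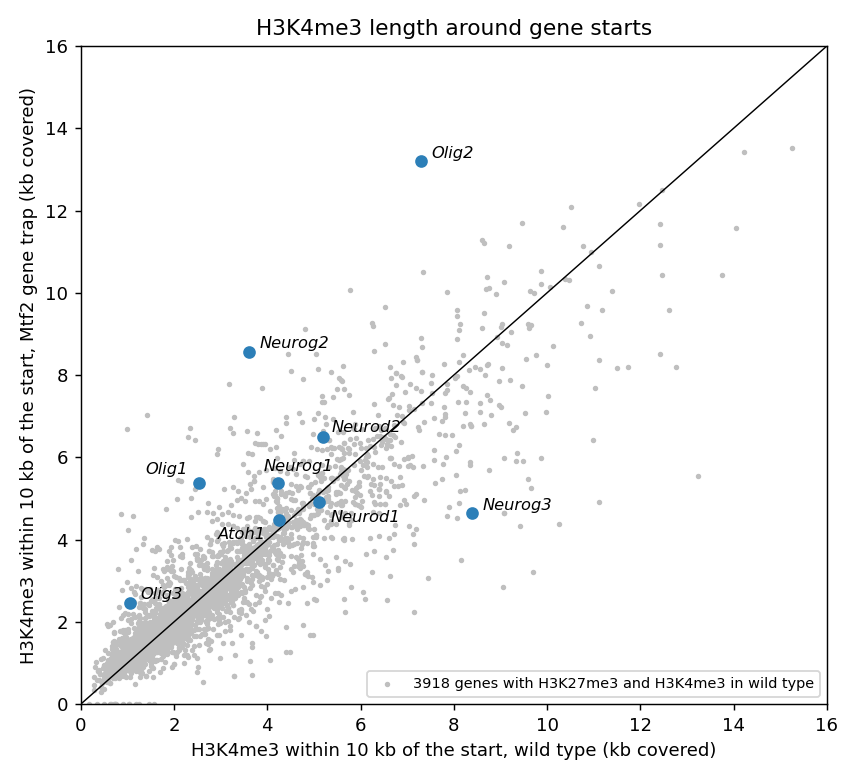
Each point is a gene with H3K27me3 and H3K4me3 at its promoter in wild type (3918 grey points, the 9 neural bHLH genes in blue), placed by the kb of H3K4me3 within 10 kb of its start in wild-type (x) and gene-trap cells (y); the line marks equal lengths. Olig2, Neurog2, Olig1 and Olig3 lie well above the line, and Neurog3 lies below it.

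The longer H3K4me3 came in part from pieces at sites bound by MTF2 in wild type. Neurog2 had pieces of 1818 bp, 3998 to 5815 bp upstream, and 1904 bp, 6475 to 8378 bp downstream, where wild type had none, and both overlapped MTF2 peaks. Olig3 had one of 1108 bp, 3052 to 4159 bp upstream, and Neurod2 one of 533 bp, 8245 to 8777 bp downstream, also over MTF2 peaks. Of the 23 MTF2 peaks away from the promoters in the 9 domains, 12 had H3K4me3 in wild type and 17 in gene trap, beside 76.0% and 80.8% of 2290 such peaks genome-wide. Of the 11 without it in wild type 5 gained it (2 at Neurog2 and 1 each at Neurod2, Olig2 and Olig3), beside 30.8% of the genome-wide peaks without it, and it was lost over 0 of the 12.

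Gain of H3K4me3 and loss of H3K27me3 did not coincide gene by gene. Neurog2 kept H3K27me3 and had the largest fold gain, and its new upstream piece lay under gene-trap H3K27me3 while the downstream one did not. Neurog3 and Neurod1 lost H3K27me3, and H3K4me3 inside their domains covered 89.6% and 96.0% of the wild-type length. In counts, 1 of 4 genes with kept H3K27me3 and 3 of 5 with lost H3K27me3 were at least 1.5-fold longer, beside 8.91% and 5.78% of the bivalent genes with each outcome.

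Olig2 and Olig1 share a locus, where the lists of both genotypes were compared over a wider region. Their starts are 44315 bp apart, and the region chr16:91195457-91281933 (86.5 kb, chosen after the values were seen) held 2 H3K27me3 domains of together 28198 bp, 5 EZH2 peaks of 14368 bp and 6 MTF2 peaks of 13380 bp in wild type. In gene trap no EZH2 or H3K27me3 peak was listed there. H3K4me3 went from 4 peaks and 9842 bp to 8 peaks and 26840 bp. Over Olig2, a 3744-bp and a 3192-bp peak in wild type were replaced by 1 peak of 11341 bp, from 5996 bp upstream to 5344 bp downstream, which is also the longest gene-trap H3K4me3 promoter peak of the 9 genes.

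Beyond the domains, 5 of the 8 gene-trap H3K4me3 peaks overlapped no wild-type one, beside 16.6% of gene-trap H3K4me3 peaks genome-wide. Upstream of Olig2 these were 2449 bp long, 24783 to 27231 bp away, and 530 bp long, 13354 to 13883 bp away. Between the genes they were 1154 bp, 4130 bp and 1117 bp long, the longest lying 27557 to 31686 bp downstream of the Olig2 start and 12629 to 16758 bp upstream of the Olig1 start. None of the 5 overlapped a wild-type MTF2 peak.

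**Figure D4:**
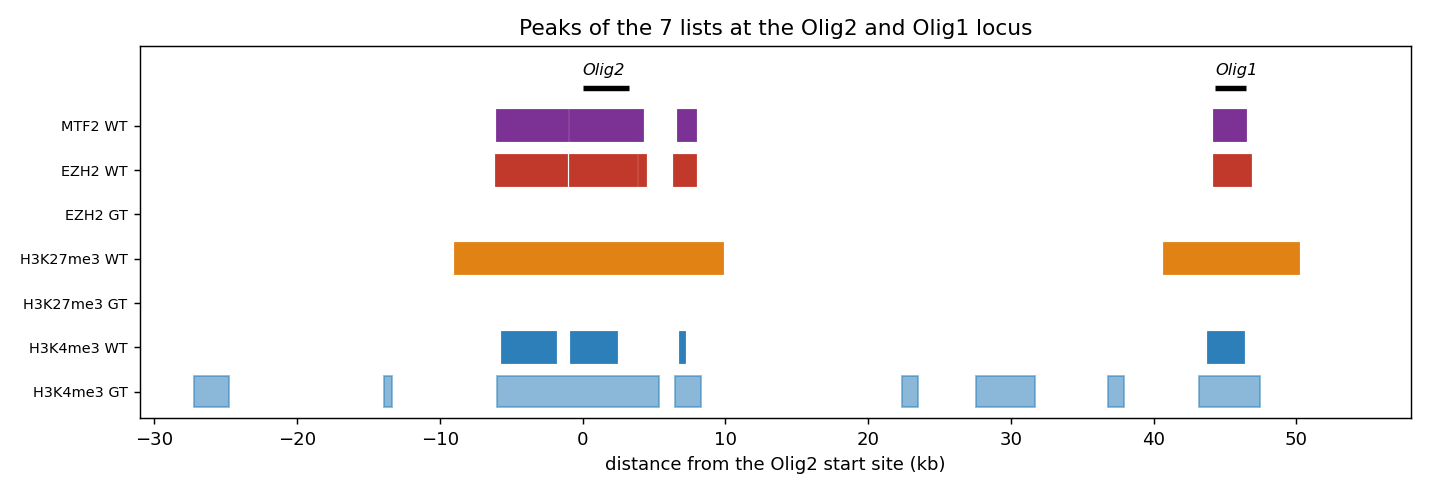
Peaks of the 7 lists (rows; WT, wild type, GT, Mtf2 gene trap) across the Olig2 and Olig1 locus, in kb from the Olig2 start, with gene bodies in black. EZH2 and H3K27me3 rows are empty in gene trap, and the H3K4me3 row has 8 peaks against 4 in wild type.

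The sequence of the promoters was described by CpG and GCG content. In the window of 2001 bp the 9 genes had a median of 4.85 CpG per 100 bases, from 3.10 at Neurod1 to 8.25 at Neurog2, beside 3.15 over all genes and 4.95 over the 3481 genes with MTF2. GCG on either strand had a median of 3.35 per 100 bases beside 1.95 and 3.7. The neural bHLH promoters were thus close to other MTF2-bound promoters. The central 1 kb of their widest promoter MTF2 peak had a median of 7.4 CpG per 100 bases, the highest value being 11.4 at Olig2 and the lowest 4.7 at Neurod1. The median over all 6357 MTF2 peaks was 5.9. These 2 sets are unlike, since the 6357 include narrow peaks and peaks away from promoters, and no matched set of wide promoter peaks was taken.

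Genes that kept H3K27me3 had a median of 6.2 CpG per 100 bases in the promoter and those without it 4.45, with overlapping ranges of 4.1 to 8.25 and 3.1 to 6.6. In the centre of the MTF2 peak the medians were 7.7 and 6.6, and the highest value belonged to Olig2, which lost the mark. Over the whole domains the 9 genes had a median of 2.62 CpG per 100 bases, beside 2.76 over all wild-type domains. E-boxes in the promoter had a median of 0.45 per 100 bases in both the 9 genes and all genes.

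By the length covered in the 7 lists within 10 kb of the start, 8 of the 9 genes are given beside their closest protein-coding gene (Euclidean distance of log2 of 1 plus the bp covered). The closest pairs were Neurod1 with Pcdh1 (distance 0.198), Neurog3 with Wnk4 (0.435) and Neurod2 with Evx1 (0.506). Next came Olig1 with Cachd1 (0.629), Olig3 with Esrrg (0.758), Atoh1 with Igf2 (0.814) and Neurog2 with Wt1 (0.92). Olig2 had the most distant match, Tfap2c at 1.47. Among the 9 themselves Neurog3 and Neurod1 (0.76) and Neurog2 and Neurod2 (0.891) were closest, while Olig1 and Olig2, which share a locus, were 3.89 apart. Pairs of a gene that kept H3K27me3 and a gene that did not were much further apart, from 15.7 (Neurog1 and Olig2) to 16.8 (Neurod2 and Olig3). In such pairs a length of 0 in the gene-trap EZH2 and H3K27me3 lists weighs heavily on the log scale.

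Other genes of the pathway were counted from lists of named genes, with lengths given as the bp covered inside the wild-type peaks at the promoter. Among 11 other neural bHLH genes, 9 had H3K27me3, 8 EZH2 and 7 MTF2 in wild type, beside 19.3%, 16.6% and 15.9% of all genes. In gene trap 3 kept H3K27me3 and 1 EZH2. Over all genes with each mark in wild type 13.7% and 4.24% kept it, and in the widest classes by wild-type width 48.3% and 20.4% did. Ptf1a, which specifies inhibitory neurons and pancreas, kept 378 bp of 3106 bp EZH2 and 4376 bp of 15672 bp H3K27me3. Bhlhe23 kept 2968 bp of 6747 bp H3K27me3, and Bhlhe22 kept none of 8755 bp. H3K4me3 was at the promoters of 7 of the 11 in wild type and 8 in gene trap, beside 65.5% and 66.1% of all genes. Nhlh2 was the only one to gain it, with a peak of 2270 bp in gene trap. The share of all genes that gained H3K4me3 was not taken.

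Partners and antagonists of the family were counted next. Of the 3 E proteins, the ubiquitous dimer partners, only Tcf12 had MTF2, EZH2 and H3K27me3, with 1721 bp of EZH2 and 5654 bp of H3K27me3 in wild type and no peak of either in gene trap. Of the 4 Id genes, which block bHLH dimers from DNA, Id3 and Id4 had the 3 marks, and Id3 kept 2101 bp of 6032 bp H3K27me3. Of 8 Hes and Hey repressors, the effectors of Notch signalling, 7 had H3K27me3 and 6 EZH2 in wild type. Of these 0 kept either at the promoter, beside 13.7% and 4.24% of all genes with each mark in wild type. Hes5, Hey2, Hes7 and Heyl had H3K27me3 peaks in the widest class (from 6877 bp), where 48.3% of genes kept the mark. Away from the promoter window, Hey1 kept 1192 bp of 5394 bp H3K27me3 inside its wild-type peaks. H3K4me3 was present at all of these 15 genes in both genotypes, beside 65.5% of all genes in wild type and 66.1% in gene trap.

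Targets and collaborators of neural bHLH factors formed the last list. Of 18 genes, 16 had H3K27me3 and 14 EZH2 in wild type, and 11 kept H3K27me3 and 5 EZH2 in gene trap. Over all genes with each mark in wild type 13.7% and 4.24% kept it, and in the widest classes by wild-type width 48.3% and 20.4% did. Most of the 16 had H3K27me3 peaks in that widest class, from 6877 bp. Pax6, a regulator of eye and neural progenitors, had 34228 bp of H3K27me3 and 11383 bp of EZH2, of which 25623 bp in 2 pieces and 1919 bp in 5 pieces were left. Barhl2 kept 17674 bp of 27213 bp H3K27me3 and 867 bp of 7803 bp EZH2, and Nkx2-2, which patterns ventral spinal cord, kept 18858 bp of 20980 bp and 2598 bp of 11517 bp. Dll4, a Notch ligand, kept 12427 bp of 18950 bp H3K27me3 with no EZH2 peak left at the promoter.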

How the data were processed

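The authors deposited lists of ChIP-seq peak positions in mouse embryonic stem cells. The submitters' processing notes name CASAVA, BWA 0.7.10-r789, MACS2 2.7 and the mm10 genome, without roles. Reads were 75 bp, per the labels' protocols. Threshold, control and pooling are not given in the sources used here. The deposited lists hold the start and end position of each region in bp and no count or score; their names mention MAnorm and unbiased peaks, a step the labels do not describe. Depth is unknown, so no interval could be given.

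Peaks were overlapped with windows of 1 kb on either side of protein-coding starts (GENCODE M21 basic, genes merged by symbol), and lengths were summed inside the wild-type H3K27me3 domain and within 10 kb of the start, in Python 3.11.15 with pysam 0.24.0; the overlap code was tested on simulated data. Sequences came from GRCm38.p6 and the RefSeq promoter table. Samples were grouped by their labels, and no test was run, since each group has 1 list. All 9 genes were named, with up to 4 examples per related list by widest wild-type EZH2 promoter peak (Nhlh2, the only gain of H3K4me3, was named after its values were seen) and the most similar gene for each; a few of these items are not reported here. Genes and lists were chosen with earlier results of these data known. Alternatives were other windows, overlaps, flanks and a minimum peak width of 500 bp.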

Additional observations from a re-analysis of the deposited data

How the results depend on the processing

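Of 55 alternatives to the summary values, 48 stayed within 1.5-fold of the main value, 7 moved further and 0 reversed. Reversal was scored only for covered lengths, so counts and the presence of a peak could move but not reverse. All 7 concern the short EZH2 pieces of gene-trap cells. The count of promoters with EZH2 was 1, was 0 with a window of 0.5 kb, an overlap of at least 200 bp, the start inside the peak or peaks of at least 500 bp, and was 3 with a window of 2.5 kb or with peaks anywhere in the wild-type EZH2 peak. The EZH2 length left within 10 kb was 2.35% of wild type and 0% with peaks of at least 500 bp. The share of all genes that kept EZH2 moved as well, from 4.24% to 2.06% with peaks of at least 500 bp and to 5.25% with a window of 2.5 kb. The count of genes with H3K27me3 in gene trap was 4, and 3, without Atoh1, with a window of 0.5 kb or the start inside the peak. The count of genes with H3K4me3 at least 1.5-fold longer stayed 4 with flanks of 5 and 20 kb and was 3 at a limit of 2-fold, without Olig2; these alternatives were chosen after seeing the data. Of 423 alternatives for single genes, 22 moved and 0 reversed. No paired analysis was possible because each group has 1 list, and leaving out a replicate was not run for the same reason. Without scores or depth, a weak peak and a peak that was not listed cannot be told apart.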
